A study of Mus musculus with 2 samples.

Results

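Potassium channel and sodium pump genes were examined in Müller glia (MG), the principal glia of the retina, sorted by fluorescence from the retinas of adult mice with and without light damage. The set comprised each gene whose array symbol begins with Kcn, the stem of the potassium channel subunits, or with Atp1a or Atp1b and a digit, the subunits of the sodium pump. Kcnj10, Kcnj16, Kcnj2 and Kcnj13 were left out of the set by the same rule. The rule gave 91 of 20412 genes with a value, read by 804 probe sets, and used no measured value. Of these, 86 are potassium channel genes and 5 are pump subunits. A further 7 protein-coding genes with these stems, among them the sodium pump alpha subunits other than Atp1a4, were not analysed here.

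For the control array, RNA of MG was pooled over 12 undamaged retinas. For the light damage array it was pooled over 10 retinas of mice kept under white light of 10000 lux for 8 hours and analysed a week later. By then, the paper reports, most photoreceptors of the central retina were lost, with less cell death in the periphery. MG were labelled in Rlbp1-creERT2 mice carrying a floxed-stop tdTomato reporter, induced by tamoxifen. For light damage, this line was crossed to albino Swiss Webster mice with an Rpe65 variant that raises susceptibility to light, and a Hes5-GFP line crossed to the same strain was a further MG reporter. The sources do not say which cross gave the control array, so strain and damage cannot be told apart. With 1 array per condition there is no replicate, no test and no p-value, and the number of arrays limits the precision of every value below.

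Neurons that fire or respond to light release potassium into the narrow space around them. MG take it up through their potassium channels and pass it on to the vitreous and the vessels, which keeps the membrane potential of the retina steady. Inward rectifiers and two-pore-domain channels hold the resting potential, voltage-gated (Kv) channels open on depolarisation, and calcium-activated channels open as calcium enters. The sodium pump, built from a catalytic alpha and a stabilising beta subunit, restores both ion gradients. Loss of potassium conductance is a known trait of reactive MG in several models of retinal disease.

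Levels are log2 values, and the level of a gene on an array is the median of its probe sets. The difference of a gene is the median over its probe sets of light damage minus control. This difference need not equal that of both levels, nor share its sign. It is given with the SD over probe sets, a spread between the probe sets of a gene within the same pair of arrays, not between samples. A gene entered the counts once its level averaged 5 or more over both arrays, and it was counted as higher or lower at a difference of 1 on the log2 scale, which is 2-fold. Of the 91 members, 86 reached this level. Kcnh7, at a mean of 5.03, stood just inside, and Kcnv1, at 4.98, just outside. The other 4 members below it were Kcnk5 (4.96), Kcnj1 (4.65), Kcna4 (4.64) and Kcne3 (4.59).

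The sorted cells gave high signals for MG markers on both arrays. All 9 markers, from Rlbp1 and Glul to Sox9 and Vim, had levels between 9.16 and 13.4 in the control and between 9.01 and 13.1 after light damage. The 5 rod markers with a value were also high, between 8.63 and 13.9 in the control and between 7.84 and 13.5 after light damage. The log2 of their summed linear signal was 14.9 in the control and 14.3 after light damage, and that of the 5 cone markers was 13.0 and 11.7. In such a sorted bulk sample, fewer cells of a type and less RNA per cell cannot be told apart. Over all genes, the median level of probe sets was 7.02 in the control and 6.99 after light damage.

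Most of these genes stood at similar levels on both arrays. None of the 86 members was higher by 1 or more, where 1.75% of the 16534 genes at this level were, and 1 was lower by 1 or more, where 3.47% were. The member was Kcnv2. The median difference of the members was −0.03 with an SD over genes of 0.34, against −0.03 with an SD of 0.50 over all genes. From the lower to the upper quartile the members lay between −0.17 and 0.18, and all genes between −0.36 and 0.25.

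**Figure D1:**
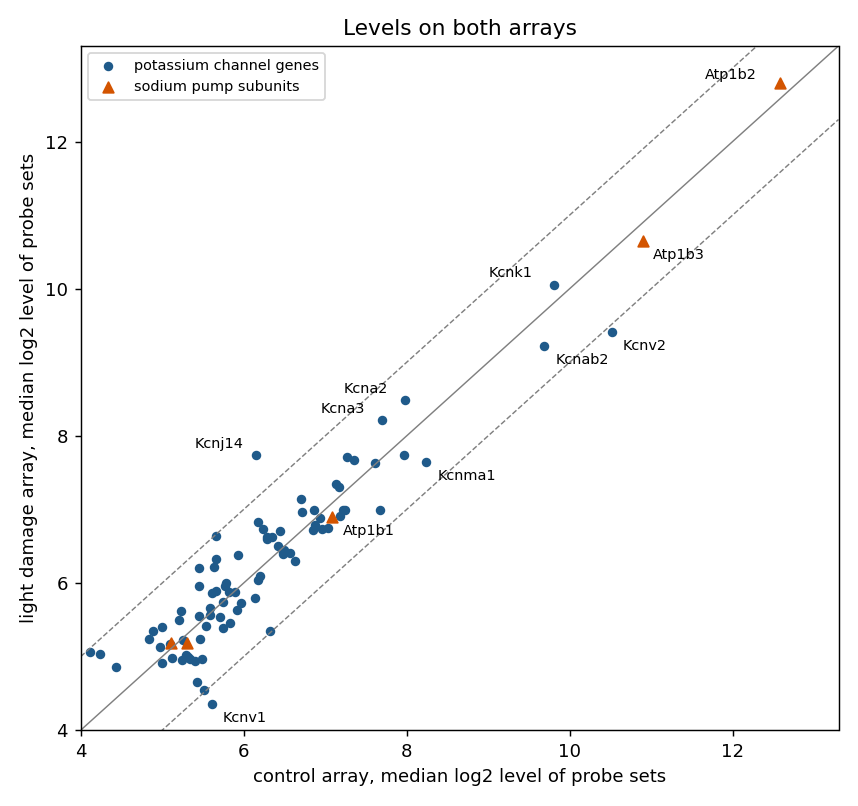
Log2 levels of the 91 members on the control array (x axis) and on the light damage array (y axis), each the median of a gene's probe sets, with potassium channel genes as circles and sodium pump subunits as triangles. The solid line marks equal levels and the dashed lines a difference of 1. Most members lie near the solid line, Atp1b2 stands at 12.6 and 12.8, and Kcnv2 lies below the line at 10.5 and 9.41.

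A smaller difference of 0.5, or 1.41-fold, was reached by 7 members on the higher side, against 11% of all genes, and by 5 on the lower side, against 17.2%. Those on the higher side were Kcnj12, Kcnmb3, Kcng1, Kcnh2, Kcnip3, Kcna3 and Kcna2. Those on the lower side were Kcnv2, Kcnh7, Kcnab1, Kcnip4 and Kcne2. With an offset of 32 added to the linear signal, the 7 lay between 0.26 (Kcnip3) and 0.48 (Kcna3), below 0.5. Of the 5, only Kcnv2 (−1.07) and Kcne2 (−0.51) then reached 0.5. The offset also lowered the shares of all genes past 1, to 0.937% higher and 1.87% lower. As deposited, 86.0% of the members and 71.9% of all genes lay within 0.5. Of the members 20.9% averaged 7 or more, against 52.3% of all genes. A signal depends on the probe set as well as on the amount of RNA, so that levels cannot be ranked between genes. At a mean level between 5 and 6, 88.1% of 42 members and 83.6% of 3955 genes lay within 0.5. Between 6 and 7 the shares were 92.3% of 26 members and 77.9% of 3928 genes, and from 7 on they were 72.2% of 18 members and 63.8% of 8651 genes.

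**Figure D2:**
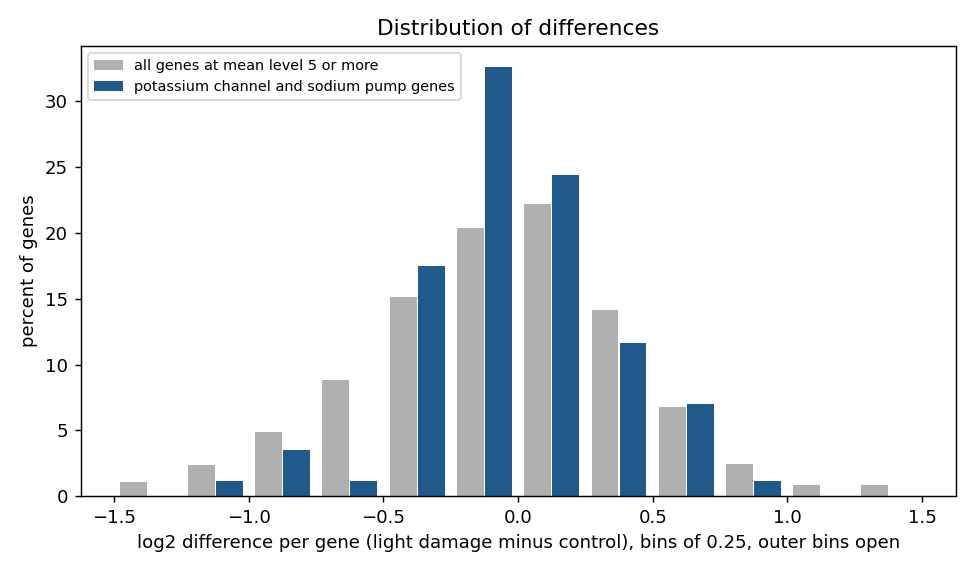
Percent of genes (y axis) in bins of 0.25 of the log2 difference, light damage minus control (x axis, outer bins hold everything beyond), for the 86 members and for all 16534 genes that averaged 5 or more. The bin from −0.25 to 0 held 32.6% of the members and 20.4% of all genes, and no member lay at 1 or above.

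Single probe sets varied much more than gene medians. Of the 804 probe sets of the members, 77 (9.58%) were higher by 1 or more and 91 (11.3%) were lower by 1 or more, against 10.2% and 13.2% of the 212138 probe sets of single genes. The difference of a gene exceeded the SD over its own probe sets for 6 of 85 members with 2 or more probe sets, against 22.0% of all such genes. These 6 were Kcnv2, Kcnj12, Kcng1, Kcna3, Kcne1 and Kcnk9, of which Kcng1, Kcna3 and Kcnk9 had only 2 probe sets and Kcnk9 differed by only 0.07. At a mean level between 5 and 6 the shares were 9.76% of members and 12.4% of all genes. Between 6 and 7 they were 0% and 15.2%, and from 7 on 11.1% and 28.9%. Among the 78 members with 3 or more probe sets, 4 had every probe set on the same side of 0, or 5.13%, against 10.3% of all genes. These were Kcnv2 and Kcne1 on the lower side and Kcnj12 and Kcnc4 on the higher side. At a mean level between 5 and 6 the shares were 5.26% of members and 5.68% of all genes. Between 6 and 7 they were 4.35% and 7.79%, and from 7 on 5.88% and 13.2%.

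**Figure D3:**
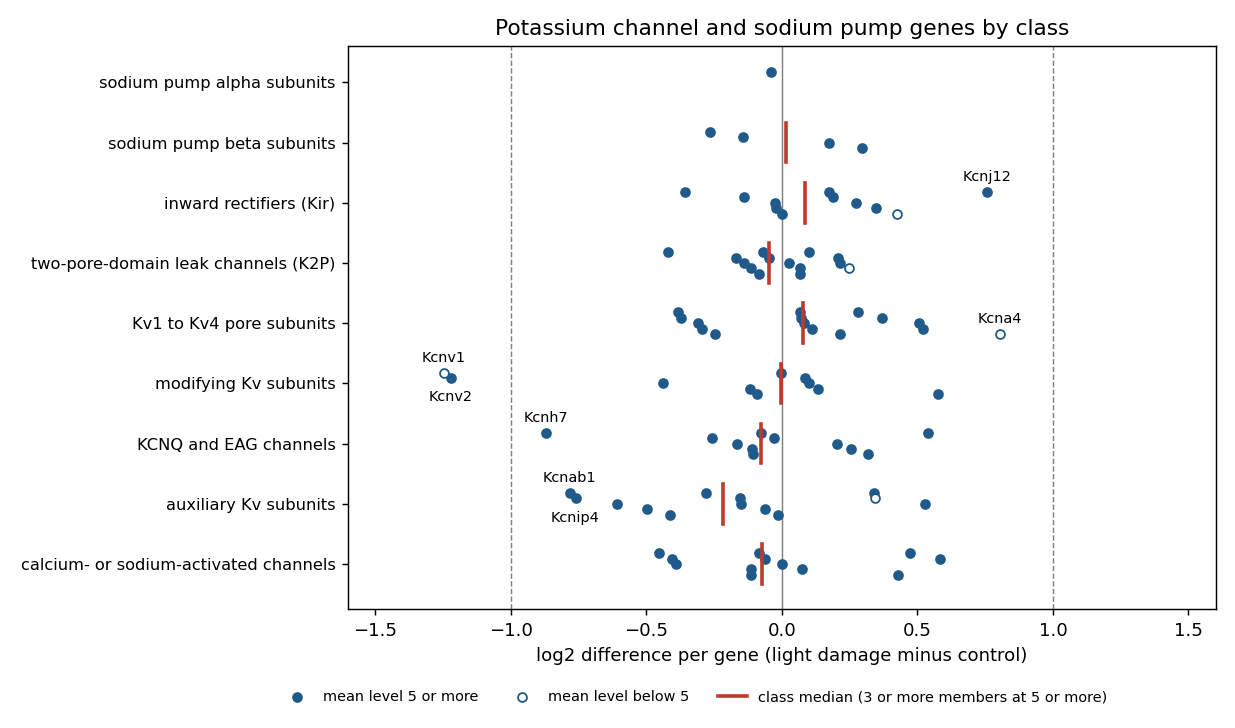
Log2 difference per gene, light damage minus control (x axis), of the 91 members by class (y axis), filled where the mean level reached 5 and open below. Red bars mark class medians over members at 5 or more, and dashed lines a difference of 1. The class medians lie between −0.22 and 0.09, and Kcnv2 and Kcnv1 stand apart on the left.

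Kcnv2 was the member with the largest difference at this level. It encodes a silent Kv subunit that forms no channel alone but joins Kv2 subunits in the inner segment of rods and cones, and its loss in humans causes a cone dystrophy. Its level was 10.5 in the control and 9.41 after light damage, a difference of −1.22 ± 0.76 over 5 probe sets, or 2.33-fold lower. Its probe sets read 5.33, 7.96, 10.5, 11.6 and 11.1 in the control. In the same order they read 3.16, 7.89, 9.41, 10.3 and 9.69 after light damage. Each of them was thus lower after light damage, the second by only 0.07.

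Most rod and cone markers also stood lower after light damage. Of the 5 rod markers, all were below 0 (3 with the arrays brought to the same quantiles or a trend with level removed, 4 with median centring) and 2 were lower by 1 or more, with a median of −0.93 and a range from −1.91 (Pdc, the rod protein phosducin) to −0.03 (Sag, rod arrestin). Of the 5 cone markers, 3 were lower by 1 or more, with a median of −1.12 and a range from −1.54 (Opn1sw, the short-wavelength cone opsin) to 0.11 (Pde6h, a subunit of the cone phosphodiesterase). Kcnv2 stood within both ranges. The part of the photoreceptor signal in the value of Kcnv2 was not tested.

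Kcnv1, the neuronal relative of Kcnv2, went from 5.61 in the control to 4.36 with light damage, with a difference of −1.25 ± 1.25 over 3 probe sets. Its probe sets did not move together, at −1.25, −1.55 and 0.74. It did not reach the minimum mean level. The remaining 8 modifying Kv subunits, which retune Kv2 channels, ranged from −0.44 ± 0.52 (Kcng3) to 0.58 ± 0.45 (Kcng1). The level of Kcng3 went the other way, from 5.93 to 6.39, and the mean of its probe sets was −0.15. For Kcng1, whose level went from 5.64 to 6.22, both probe sets were above 0. Kcng4, at a level of 7.17 and 7.30, differed by 0.13 ± 0.45, Kcnf1 by −0.12 ± 0.52 and Kcns2 by 0.10 ± 1.25. Over the 9 members of the class that passed the level, the median was 0.00.

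**Figure D4:**
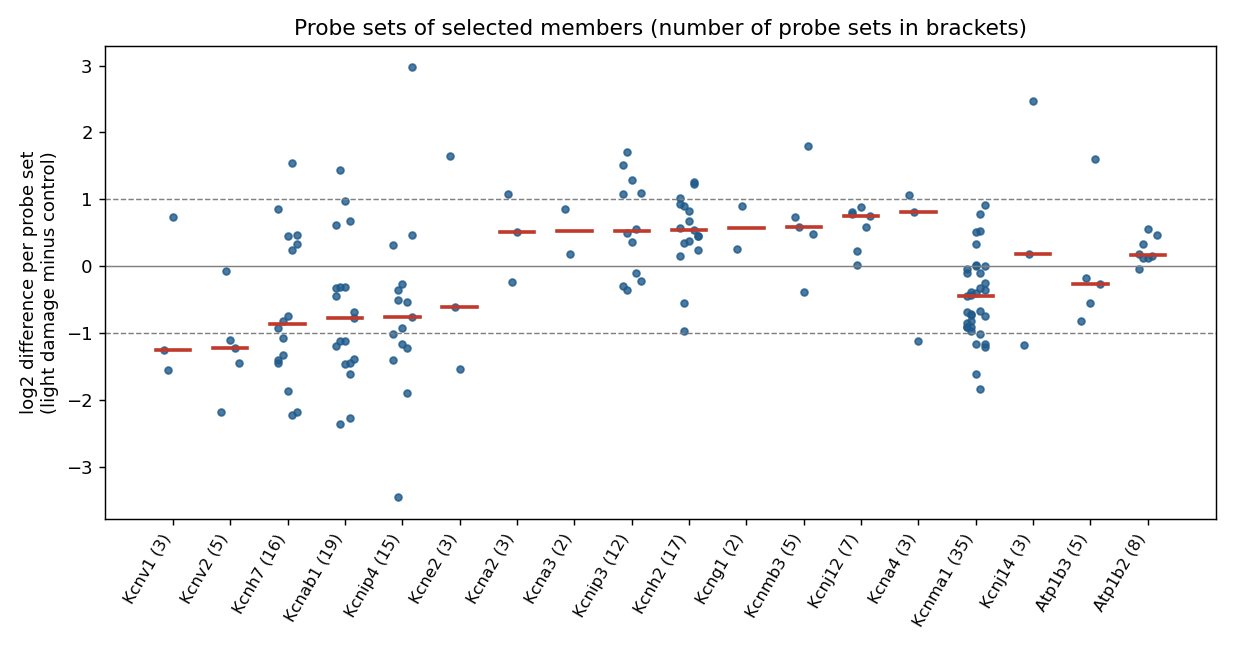
Log2 difference, light damage minus control (y axis), of each probe set (points) of the 14 members with a gene difference of 0.5 or more in either direction and of Kcnma1, Kcnj14, Atp1b3 and Atp1b2 (x axis, number of probe sets in brackets). Red bars are the gene medians and dashed lines a difference of 1. All 5 probe sets of Kcnv2 lie below 0 and all 7 of Kcnj12 above 0, whereas those of Kcnip4 run from −3.46 to 2.97.

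The inward rectifiers other than the excluded genes showed small differences, with Kcnj12 as the exception. Of 10 members at the minimum level, 5 were above 0, 4 below and 1 at 0, with a median of 0.09 (SD over genes 0.31). Of all genes, 47.0% were above 0 and 52.7% below. Kcnj12, which encodes the strong inward rectifier Kir2.2, went from 5.45 in the control to 6.21 with light damage, a difference of 0.76 ± 0.33. Its 7 probe sets ranged from 0.02 to 0.88, all above 0, and the difference was 0.42 with an offset of 32 added to the linear signal. The subunits of G-protein-gated channels gave 0.35 ± 0.55 for Kcnj3, 0.27 ± 0.69 for Kcnj9, 0.00 ± 0.56 for Kcnj5 and −0.02 ± 1.08 for Kcnj6.

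The pore subunits of channels closed by ATP, Kcnj11 and Kcnj8, which is also a pericyte marker, differed by −0.02 ± 0.74 and 0.17 ± 0.46. The 4 pericyte markers listed lay between 0.04 (Acta2) and 1.13 (Rgs5), all above 0, against 47.0% of all genes. The log2 of their summed linear signal was 9.42 in the control and 10.1 after light damage. Their part in the value of Kcnj8 was not tested. Kcnj15, a relative of the main glial rectifier Kcnj10, had levels of 5.92 and 5.63 and a difference of −0.14 ± 0.50. Kcnj4 stood at −0.36 ± 0.65 over 2 probe sets. Kcnj14 shows how far probe sets of a gene can part, since its levels were 6.15 and 7.73 but its 3 probe sets gave −1.18, 0.19 and 2.47, with a median of 0.19. The kidney channel gene Kcnj1 was below the minimum level, at 4.44 and 4.86. The 4 excluded Kir genes were all above 0, by 0.17 ± 0.39 for Kcnj10 (levels 9.21 and 9.53), 0.22 ± 0.53 for Kcnj2, 0.34 ± 0.52 for Kcnj16 and 0.42 ± 0.36 for Kcnj13, and none reached 1. Kcnj2 and Kcnj16 did not reach the minimum mean level, at 4.16 and 4.58, and the level of Kcnj2 was 4.28 in the control and 4.04 after light damage. In their highest-level probe sets 2 of the 4 were below 0, and 1, Kcnj16, was below 0 with probe sets at 5 or more.

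The two-pore-domain channels, which carry leak currents at rest, were the class with the narrowest spread among those of 9 or more members. All 13 at the minimum level lay within 0.5 (11 with the highest-level probe set), against 71.9% of all genes. That share was 83.6% for genes at a mean level between 5 and 6 and 77.9% between 6 and 7. The 13 had a median of −0.05 and an SD over genes of 0.17, between −0.42 and 0.21. Kcnk1, a leak channel gene known from astrocytes, stood at 9.81 in the control and 10.1 after light damage, a difference of 0.03 ± 0.50. Its 4 probe sets fell on both sides of 0, from −0.48 to 0.67. The stretch-sensitive channels gave 0.21 ± 0.77 for Kcnk2, known from MG as TREK-1, 0.21 ± 0.66 for Kcnk4 and −0.42 ± 0.71 for Kcnk10.

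The acid-sensitive Kcnk3, with levels of 7.22 and 6.99, differed by −0.11 ± 0.51. Kcnk13, which sets the resting potential of microglia, was at 6.63 and 6.30 with a difference of −0.07 ± 0.46. Kcnk16, a channel of the pancreas, stood at −0.17 ± 0.59, Kcnk6 at −0.14 ± 0.48 and Kcnk18 at 0.10 ± 0.38. The remaining 4 members that passed, Kcnk7, Kcnk9, Kcnk12 and Kcnk15, lay between −0.08 and 0.07. Kcnk5 did not reach the minimum level, with a difference of 0.25 ± 0.84.

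Among the pore subunits of the Kv1 to Kv4 channels, 9 of 14 members were above 0, against 47.0% of all genes, with a median of 0.08 (SD over genes 0.32). Kcna2, a delayed rectifier of axons, had levels of 7.98 and 8.49, a difference of 0.51 ± 0.66 over 3 probe sets that ran from −0.24 to 1.08. Kcna3, known from lymphocytes and activated microglia, had levels of 7.70 and 8.22, a difference of 0.52 ± 0.48 with both probe sets above 0. The 7 microglia markers lay between 4.50 and 7.0 in the control and between 4.53 and 6.68 after light damage, and the log2 of their summed linear signal was 8.68 and 8.74. Of the 5 that reached the minimum level 3 were below 0, with a median of −0.06 and a range from −0.39 ± 0.26 for Cx3cr1 (4 of 4 probe sets below 0) to 0.48 ± 0.25 for C1qb (4 of 4 above 0). Aif1 and P2ry12, below that level, differed by 0.34 each. Their part in the value of Kcna3 was not tested.

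Kcnc1, a fast delayed rectifier of neurons, differed by 0.28 ± 0.78 and its relative Kcnc4 by 0.22 ± 0.43, with 4 of 4 probe sets above 0. Kcna7 stood at 0.37 ± 0.68. On the lower side, Kcna5 was at −0.38 ± 1.18, Kcnc2 at −0.37 ± 0.57 and Kcna6 at −0.29 ± 0.74. The A-type channel genes gave −0.31 ± 0.83 for Kcnd2, 0.11 ± 0.50 for Kcnd1 and 0.08 ± 0.54 for Kcnd3. Kcna1 and Kcnb2 differed by 0.07 each, and Kcna10, read by 1 probe set, by −0.25. Kcna4 went from 4.24 to 5.04, below the minimum mean level, and differed by 0.80 ± 1.19.

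The channels of the ether-a-go-go and KCNQ families pointed in both directions. Of 11 members 4 were above 0, against 47.0% of all genes, with a median of −0.08 (SD over genes 0.37). Kcnh2, the Erg channel that repolarises the heart, had levels of 7.27 and 7.72, a difference of 0.54 ± 0.58 with 15 of 17 probe sets above 0. Its relative Kcnh7 stood on the other side, with levels of 5.52 and 4.54 and a difference of −0.87 ± 1.14. However, 6 of its 16 probe sets were above 0 and its signal after light damage lay below 5. Once its probe sets averaging below 5 were dropped, Kcnh7 differed by only −0.25. The offset of 32 gave −0.44 for Kcnh7, whereas its highest-level probe set stood at −0.81. The third Erg gene, Kcnh6, had levels of 7.97 and 7.74 and a difference of −0.26 ± 0.46. The Erg genes differed in sign among themselves as deposited and in each scaling of the arrays, although Kcnh6 stood at 0.09 in its highest-level probe set.

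Kcnh5, an Eag channel gene, was nearly level at 7.61 and 7.64, a difference of −0.08 ± 0.43, and Kcnh1 differed by −0.03 ± 0.90. Kcnh4, an Elk channel gene, stood at 0.26 ± 0.59 with 14 of 18 probe sets above 0, Kcnh3 at 0.20 ± 0.96 and Kcnh8 at −0.11 ± 0.56. Of the genes for the M-current, which damps firing of neurons, Kcnq3 differed by 0.32 ± 0.55 and Kcnq5 by −0.17 ± 0.56. Kcnq1, the subunit of heart and epithelia, was at −0.11 ± 0.83, with 10 probe sets on each side.

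The auxiliary Kv subunits had the lowest class median. Of 12 members at the minimum level 10 were below 0, against 52.7% of all genes, with a median of −0.22 (SD over genes 0.41). Of the same 12 members, 8 were below 0 with the mean of probe sets, 9 with median centring or quantile normalization and 10 in their highest-level probe sets. The median of all genes was −0.04 with the mean of probe sets and 0.00 with median centring. With quantile normalization it was 0.02, and with the highest-level probe set 0.01. Kcnab1, a cytoplasmic beta subunit, had levels of 5.83 and 5.46 and a difference of −0.78 ± 1.05, with 15 of 19 probe sets below 0. Kcnab2, also a beta subunit, had levels of 9.69 and 9.22 and a difference of −0.28 ± 0.39, with 14 of 19 below 0. Kcnab3 stood at −0.06 ± 1.00. All 3 beta subunits thus stood below 0 as deposited and in each scaling of the arrays, but Kcnab3 was at 0.04 in the mean of its probe sets and Kcnab2 at 0.28 in its highest-level probe set.

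The Kcnip genes encode calcium-binding partners of A-type channels and did not share a direction, as deposited or in any scaling of the arrays. Kcnip4 had levels of 6.32 and 5.34 and a difference of −0.76 ± 1.37, with 12 of 15 probe sets below 0. Kcnip3, also known as a calcium-dependent repressor of transcription, had levels of 5.66 and 6.64 and a difference of 0.53 ± 0.74, with 8 of 12 above 0. Kcnip2 differed by 0.34 ± 0.83 and Kcnip1 by −0.02 ± 0.88. Of the single-span Kcne subunits, Kcne2 had levels of 7.67 and 7.0 and a difference of −0.61 ± 1.64, with probe sets at −1.54, −0.61 and 1.65. Kcne1 differed by −0.50 ± 0.39 in 3 of 3 probe sets, Kcne4 by −0.41 ± 0.83 and Kcne1l, the X-linked member, by −0.15 ± 0.37. Kcne3 stayed below the minimum level, and Kcnrg differed by −0.15 ± 0.52.

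Channels opened by calcium or sodium were split as well, with a median of −0.07 (SD over genes 0.35). Of 12 members 4 were above 0 and 7 below, against 47.0% and 52.7% of all genes. Kcnma1, the pore of the large-conductance BK channel, a channel known from MG of several mammals, stood at 8.24 in the control and at 7.65 with light damage. Its difference was −0.45 ± 0.63, and 27 of its 35 probe sets were below 0, although its highest-level probe set stood at 0.52. The beta subunits that tune BK channels gave 0.58 ± 0.78 for Kcnmb3 (4 of 5 probe sets above 0), 0.47 ± 1.38 for Kcnmb1, 0.00 ± 0.44 for Kcnmb2 and −0.06 ± 0.56 for Kcnmb4. As gene medians of the difference, Kcnma1 stood below 0 and Kcnmb3 and Kcnmb1 above 0, each by less than its SD over probe sets. The levels of Kcnmb1 were nearly equal, at 5.90 and 5.87. In the highest-level probe sets Kcnmb1 stood at 1.39, Kcnmb3 at 0.58 and Kcnmb2 at 0.27, above 0 as Kcnma1 did, and Kcnmb4 at −0.94.

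Of the small-conductance channel genes, Kcnn1 and Kcnn3 differed in sign as gene medians, but both stood at −0.19 in their highest-level probe sets. Kcnn1 had levels of 7.19 and 6.91 and a difference of −0.39 ± 0.40 with 11 of 14 probe sets below 0, whereas Kcnn3 had levels of 7.13 and 7.35 and a difference of 0.43 ± 0.62 with 5 of 9 above 0. Kcnn2 was at −0.12 ± 0.63, and Kcnn4, the intermediate-conductance channel of blood cells and microglia, at 0.07 ± 1.26. The sodium-activated Kcnt2 stood at −0.41 ± 1.28 and its relative Kcnt1 at −0.08 ± 0.92. Kcnu1, a channel of sperm, was at −0.11 ± 1.39.

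All 5 sodium pump subunits lay within 0.5 (2 with the highest-level probe set), against 71.9% of all genes, with a median of −0.04 and an SD over genes of 0.23. Atp1b2, the beta subunit first described as the adhesion molecule on glia and also present in photoreceptors, stood at 12.6 in the control and at 12.8 with light damage. Its difference was 0.17 ± 0.20, with 7 of 8 probe sets above 0. It was larger after a trend of the differences with level was removed (0.44) or both arrays were brought to the same quantiles (0.46), and it was −0.05 in its highest-level probe set. Most rod and cone markers stood lower on the same array, where Atp1b2 did not, and their part in its value was not tested.

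Atp1b3 had levels of 10.9 and 10.6 and a difference of −0.27 ± 0.95. Of its 5 probe sets 4 were below 0, at lowest −0.82, and 1 was higher by 1.6. Atp1b1, the beta subunit of most tissues, had levels of 7.09 and 6.90 and a difference of −0.14 ± 0.30, with 6 of 7 probe sets below 0. Atp1b4, which in placental mammals has lost its place in the pump and resides in muscle nuclei, had levels of 5.10 and 5.18 and a difference of 0.30 ± 0.88. Atp1a4, the alpha subunit of sperm, had levels of 5.31 and 5.19 and a difference of −0.04 ± 0.79, with probe sets from −1.69 to 1.69.

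The genes that act with these channels and pumps were listed with earlier results of these data known, and included 1 with a difference past 1. Of all genes at the minimum level, 1.75% were higher and 3.47% were lower by 1 or more. Of 12 regulators and relatives of the sodium pump at the minimum level, the median was 0.28, no gene was lower by 1 or more and 1 was higher. This gene was Fxyd1, which encodes phospholemman, a small membrane protein that restrains the pump. It went from 9.91 in the control to 11.5 with light damage, a difference of 1.42 ± 0.54 with 10 of 10 probe sets above 0, or 0.86 in its highest-level probe set. Its relatives gave 0.80 ± 0.51 for Fxyd7 (6 of 6 probe sets), 0.63 ± 0.82 for Fxyd5 (10 of 11) and 0.33 ± 0.54 for Fxyd4. Fxyd2 differed by 0.17 ± 0.51, Fxyd3 by 0.15 ± 0.96 and Fxyd6, at levels of 10.4 and 10.1, by −0.14 ± 0.33. The levels of Fxyd4 and Fxyd2 went against their differences, from 6.68 to 6.30 and from 5.57 to 5.28.

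Of 7 cation-chloride cotransporter genes, which move potassium with chloride, none differed by 1 or more and the median was 0.00. Here and for the partners below, the shares of all genes were again 1.75% higher and 3.47% lower. Slc12a4, a potassium exporter of most cells, stood at 0.57 ± 0.40 with 22 of 25 probe sets above 0, and the sodium-driven importer Slc12a2 at −0.33 ± 0.78. The 3 measured Hcn genes, for the pacemaker channels, lay between 0.15 and 0.32, or between −0.33 and 0.24 in their highest-level probe sets. The level of Hcn3 went from 6.85 to 6.46, although its difference was 0.32. None of 15 further partners differed by 1 or more, with a median of 0.05. They reached from −0.98 ± 0.86 for Dlg1, a scaffold that gathers Kv and Kir channels, with 28 of 32 probe sets below 0, to 0.76 ± 0.42 for Caskin1, a synaptic scaffold.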

How the data were processed

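The values analysed were log2 expression levels per probe set, which the authors deposited after normalization with Affymetrix Power Tools. The study's methods add the TM4 Multi-Experiment Viewer. For versions, background correction and summary method, the sources used here state nothing. RNA of sorted MG was pooled per condition and hybridised to 1 Mouse Gene ST array each, so depth is expressed only by signal. Values ran from 1.57 to 14.8.

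Of 241576 probe sets, 212138 carried 1 gene symbol in the platform annotation, 4672 several and 24766 none. The last 2 kinds entered no gene value, among them 2 probe sets shared by Kcnmb4 and a neighbour. For all genes, 2689 old symbols were updated by synonym to RefSeq names of GRCm38.p6, which changed no member. Symbols were grouped into 9 classes by stem. No test was possible with 1 array per condition, so counts and medians stand beside those of all genes. Named were all pump subunits, members past a difference of 1, the 15 with the highest mean level and the 3 most positive and 3 most negative of each class. Other members were named to complete a class, after their values were seen. Members and lists were chosen with earlier results of these data known.

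Alternatives covered array scaling, an offset of 32, gene summary, minimum level, probe sets per gene and threshold. One, the restriction to probe sets at a mean level of 5 or more, was chosen after seeing the data. The steps were tested on simulated data, with shifts beyond the threshold added to genes well above the minimum level. That test does not cover differences below the threshold, which most members had, or genes near the minimum level. Python 3.11.15, numpy 2.4.6, pandas 2.3.3, statsmodels 0.14.6 and matplotlib 3.10.9 were used.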

Additional observations from a re-analysis of the deposited data

How the results depend on the processing

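No member was higher by 1 or more, and Kcnv2 alone was lower, after quantile normalization, median centring, removal of a trend with level (span 0.3), the offset of 32, averaging of probe sets, a mean level of 7 or more, a level of 5 or more on the light damage array, restriction to 3 or more probe sets and restriction to probe sets at a mean level of 5 or more. Across all alternatives Kcnv2 ranged from −1.22 to −1.05. Read from the highest-level probe set, 4 members were higher (Kcna2, Kcna6, Kcnip3 and Kcnmb1) and 4 were lower (Kcne2, Kcnj14, Kcnj5 and Kcnv2), against 5.58% and 7.45% of all genes, and the median of calcium- or sodium-activated channels was 0.34. The cause was not tested. With no minimum level, or with a level of 5 or more on the control array, Kcnv1 joined and 2 members were lower. At a threshold of 2, 0 members were lower, and at 0.5, 7 were higher and 5 lower, by construction. The median of the members stayed between −0.09 and 0.07. Signal limits the rest: 42 of 86 members had a mean level between 5 and 6, where a small difference does not show that a gene was unchanged. No paired analysis was possible because there is 1 array per condition.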
